A study of Mus musculus with 16 samples.

Results

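The levels of 10 transcription factor genes that set or mark the fate of T cells were followed across mouse melanoma tumors: Tbx21, Eomes, Runx3, Id2, Prdm1, Tox, Batf, Foxp3, Ikzf2 and Gata3. They were chosen by symbol, as the 10 rows of these names among the 18929 genes of a deposited expression table, and each was read both as a level and relative to Cd3e, the gene of an invariant chain of the T-cell receptor complex. The tumors grew from B16F10 cells, a mouse melanoma line, injected into female C57BL/6 mice aged 7 to 8 weeks. The study asked whether α-ketoglutarate (α-KG), a metabolite of the tricarboxylic acid cycle, changes the response to an antibody against the T-cell checkpoint receptor PD1. Mice in 4 groups received vehicle (corn oil with an isotype control antibody), the anti-PD1 antibody, α-KG at 100 mg/kg into the peritoneum, or α-KG + anti-PD1 (the combination), for 9 to 11 days, and messenger RNA was sequenced from whole tissue of 4 tumors per group, 16 in all. The values are FPKM, fragment counts scaled to the length of the transcript and to the mapped fragments of the library.

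A T cell that meets its antigen turns on a small set of transcription factors that fix what it becomes. Tbx21 (T-bet) and Eomes drive interferon gamma and cytotoxic genes, Runx3 and Id2 sustain the cytotoxic program, Prdm1 (Blimp-1) ends proliferation in favor of effector function, Tox and Batf act in T cells under lasting stimulation, Foxp3 and Ikzf2 (Helios) mark regulatory T cells, and Gata3 directs type 2 helper cells. Most of these genes are not private to T cells: natural killer (NK) cells use Tbx21, Eomes, Prdm1, Runx3 and Id2, myeloid cells use Batf, Prdm1, Runx3 and Id2, and Id2 is transcribed in many cell types. In whole tumors, fewer cells of a type and less RNA per cell cannot be told apart.

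The depth of sequencing behind each tumor is not known, since the values are given as FPKM with 2 decimals. They summed to 549740 to 654772 in vehicle, anti-PD1 and α-KG tumors and to 514180 to 527812 in the combination, which was lower in every tumor. Genes of melanocytes, the cell of origin, were high in all 16 tumors, with a summed level of 7 genes between 7845 and 10572 FPKM. Red cell genes (Hbb-bt, Hba-a1 and Alas2) summed to 4712 to 5049 FPKM in the combination and to 10201 or more elsewhere. The median difference of all 12850 tested genes between the combination and the other groups was 0.12 to 0.16 on the log2 scale, and the differences below include that shift. Combination tumors 1 and 3 stood apart from tumors 2 and 4 in most T-cell genes: Cd3e was at 25.57 and 19.82 FPKM in the former and at 6.30 and 2.37 FPKM in the latter. Cd3e was at 0.98, 0.50, 0.09 and 0.18 FPKM in vehicle tumors 1 to 4, at 1.18, 2.37, 2.77 and 1.18 FPKM in anti-PD1 tumors and at 0.73, 3.32, 0.74 and 0.96 FPKM in α-KG tumors.

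Within every group the factors kept a steep order of levels, from Id2 through Batf and Runx3 down to the rest. In vehicle tumors Id2 averaged 52.9 ± 8.40 FPKM (SD, n = 4), Batf 4.51 ± 0.623 FPKM and Runx3 0.788 ± 0.411 FPKM, and the other 7 factors averaged 0.075 to 0.373 FPKM. The ranges of Id2, Batf and Runx3 did not overlap each other in vehicle, anti-PD1 or α-KG tumors. The lower 7 overlapped their neighbors in the order in each of these groups. In the combination only Id2, at 94.6 ± 24.7 FPKM, was set off from the next factor. There Batf (10.4 ± 3.64 FPKM), Runx3 (7.19 ± 5.12 FPKM) and Tox (5.74 ± 4.28 FPKM) overlapped in turn, and Gata3 was the lowest at 1.25 ± 0.797 FPKM. FPKM is scaled by transcript length, so these levels can be compared between genes. The plot of levels by tumor shows the 10 factors side by side.

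**Figure D1:**
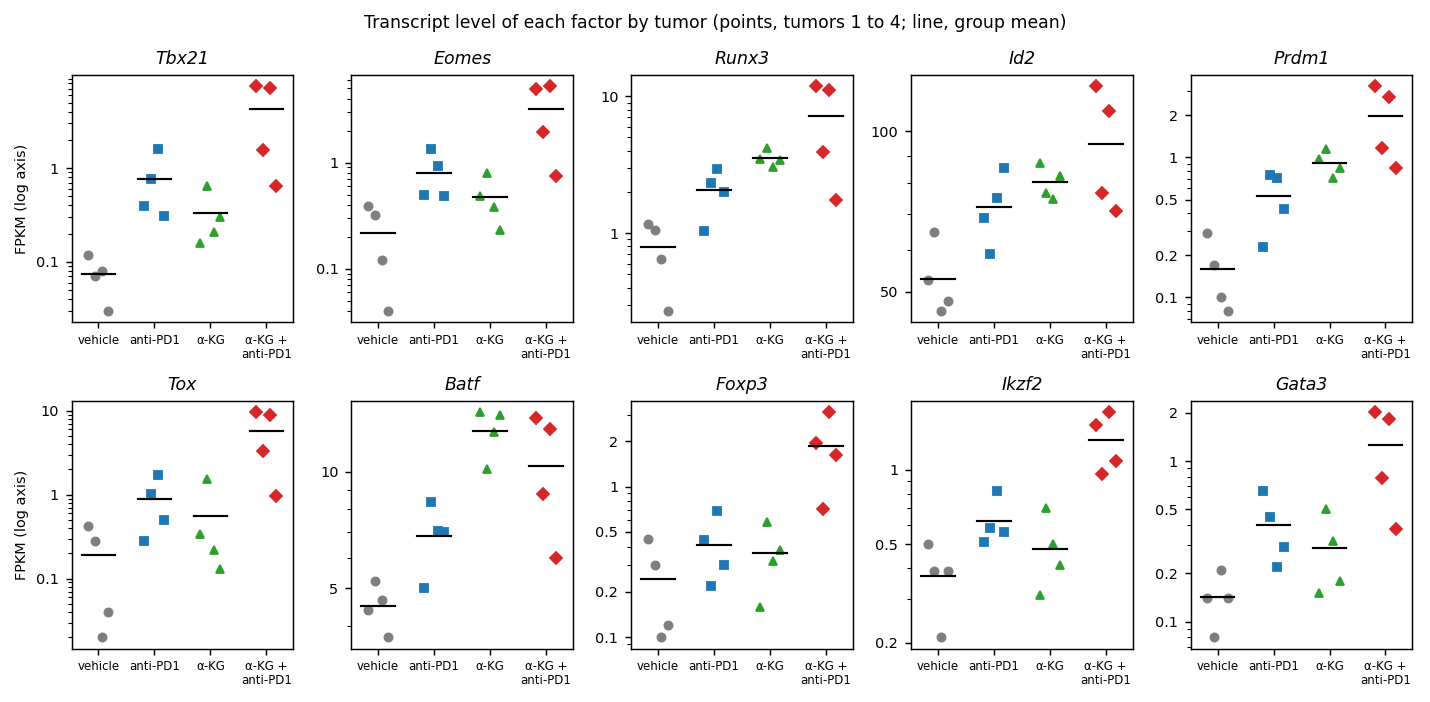
FPKM of each factor (log axis) in each tumor, by treatment group; each point is 1 tumor, in the order 1 to 4 from left to right, and the line is the arithmetic mean of the 4. Combination tumors 1 and 3 lie near the top of most panels, while Batf, Runx3, Id2, Prdm1 and Tbx21 are also above vehicle in all 4 α-KG tumors.

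Tbx21 and Eomes, the factors of interferon gamma and cytotoxic gene expression, were nearly silent in vehicle tumors and rose with the combination. Tbx21 was at 0.12, 0.07, 0.08 and 0.03 FPKM in vehicle tumors, at 0.39, 0.76, 1.61 and 0.31 FPKM in anti-PD1 tumors, at 0.16, 0.65, 0.21 and 0.30 FPKM in α-KG tumors and at 7.55, 1.56, 7.18 and 0.64 FPKM in the combination. Every treated tumor exceeded every vehicle tumor, and combination tumors 2 and 4 lay within the range of the anti-PD1 group. On the log2(FPKM + 1) scale, used for every difference in level below, Tbx21 was higher in the combination than in vehicle by 1.95 (SE 0.41, limma adjusted p = 0.00196). Its differences from vehicle were 0.66 (SE 0.41) with anti-PD1 and 0.29 (SE 0.41) with α-KG, with limma adjusted p of 0.434 and 0.684. The added 1 shrinks the differences of genes below 1 FPKM. As a ratio of mean FPKM, Tbx21 was 10.2 times vehicle with anti-PD1 and 4.40 times vehicle with α-KG. Eomes was at 0.39, 0.32, 0.12 and 0.04 FPKM in vehicle, at 0.49, 1.33, 0.92 and 0.48 FPKM in anti-PD1, at 0.48, 0.80, 0.38 and 0.23 FPKM in α-KG and at 4.92, 1.96, 5.29 and 0.75 FPKM in combination tumors. Again combination tumors 1 and 3 were the highest of the 16, and tumor 4 fell among the anti-PD1 and α-KG tumors. Eomes rose by 1.62 (SE 0.31, limma adjusted p = 0.00114) with the combination, against differences of 0.55 (SE 0.31) with anti-PD1 and 0.27 (SE 0.31) with α-KG that did not pass the test.

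Runx3, Id2 and Prdm1, factors of the cytotoxic and effector programs that other leukocytes also use, were higher than vehicle both with α-KG alone and with the combination. Runx3 was at 1.17, 1.06, 0.65 and 0.27 FPKM in vehicle, at 1.03, 2.33, 2.92 and 1.99 FPKM in anti-PD1, at 3.49, 4.17, 3.05 and 3.40 FPKM in α-KG and at 11.93, 3.91, 11.15 and 1.75 FPKM in combination tumors. The 4 α-KG tumors lay close together above all vehicle and anti-PD1 tumors, whereas the combination spread from below the α-KG range to far above it. Runx3 rose by 1.37 (SE 0.38, limma adjusted p = 0.0244) with α-KG and by 1.96 (SE 0.38, limma adjusted p = 0.00123) with the combination.

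Id2 was at 52.68, 64.80, 46.05 and 48.11 FPKM in vehicle, at 68.71, 58.96, 75.07 and 85.43 FPKM in anti-PD1, at 87.13, 76.69, 74.76 and 82.32 FPKM in α-KG and at 121.79, 76.81, 109.06 and 70.80 FPKM in combination tumors. It was thus abundant in every tumor, and α-KG and combination tumors all lay above vehicle. Its differences from vehicle were 0.60 (SE 0.16, limma adjusted p = 0.0184) with α-KG and 0.80 (SE 0.16, limma adjusted p = 0.00139) with the combination. Prdm1 was at 0.29, 0.17, 0.10 and 0.08 FPKM in vehicle, at 0.23, 0.75, 0.71 and 0.43 FPKM in anti-PD1, at 0.97, 1.14, 0.71 and 0.84 FPKM in α-KG and at 3.25, 1.17, 2.71 and 0.84 FPKM in combination tumors. All combination tumors exceeded all vehicle and anti-PD1 tumors, and tumor 4 lay within the α-KG range. Prdm1 rose by 0.72 (SE 0.22, limma adjusted p = 0.0336) with α-KG and by 1.28 (SE 0.22, limma adjusted p = 0.000579) with the combination.

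Tox and Batf are both known from T cells under lasting stimulation, and Batf alone of them passed the test with α-KG. Tox was at 0.42, 0.28, 0.02 and 0.04 FPKM in vehicle, at 0.28, 1.01, 1.73 and 0.50 FPKM in anti-PD1, at 0.34, 1.53, 0.22 and 0.13 FPKM in α-KG and at 9.65, 3.30, 9.03 and 0.96 FPKM in combination tumors. α-KG tumor 2, which also held the most Cd3e of its group, was far from the other 3. Tox rose by 2.22 (SE 0.43, limma adjusted p = 0.00124) with the combination, the largest difference of the 10 factors in this comparison on this scale, while its difference with α-KG was 0.32 (SE 0.43) and did not pass the test. As a ratio of mean FPKM over vehicle, Tbx21 (56.4) exceeded Tox (30.2) in the combination.

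Batf was at 4.40, 5.24, 4.67 and 3.74 FPKM in vehicle, at 5.02, 8.34, 7.05 and 6.98 FPKM in anti-PD1, at 14.27, 10.20, 12.64 and 14.03 FPKM in α-KG and at 13.78, 8.76, 12.89 and 6.00 FPKM in combination tumors. The α-KG tumors exceeded all vehicle and anti-PD1 tumors, and the highest value of the 16 was in α-KG tumor 1. Batf rose by 1.32 (SE 0.20, limma adjusted p = 0.000341) with α-KG and by 0.99 (SE 0.20, limma adjusted p = 0.00164) with the combination. It was also higher with α-KG than with anti-PD1, by 0.82 (SE 0.20, limma adjusted p = 0.0367), a call that was lost, with an adjusted p of up to 0.108, when any of anti-PD1 tumors 1, 3 and 4 or α-KG tumors 1, 3 and 4 was left out.

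Foxp3 and Ikzf2, genes of regulatory T cells, were set off from every other group in the combination, with levels that stayed low throughout. Foxp3 was at 0.45, 0.30, 0.10 and 0.12 FPKM in vehicle, at 0.44, 0.22, 0.69 and 0.30 FPKM in anti-PD1, at 0.16, 0.58, 0.32 and 0.38 FPKM in α-KG and at 1.95, 0.71, 3.12 and 1.62 FPKM in combination tumors. The lowest combination tumor lay just above the highest of the other 12. Foxp3 was higher in the combination than in vehicle by 1.14 (SE 0.21, limma adjusted p = 0.000798), than in anti-PD1 by 0.95 (SE 0.21, limma adjusted p = 0.0139) and than in α-KG by 1.01 (SE 0.21, limma adjusted p = 0.00224). Ikzf2 was at 0.50, 0.39, 0.21 and 0.39 FPKM in vehicle, at 0.51, 0.58, 0.82 and 0.56 FPKM in anti-PD1, at 0.31, 0.70, 0.50 and 0.41 FPKM in α-KG and at 1.51, 0.96, 1.71 and 1.08 FPKM in combination tumors. Its 4 combination tumors were the 4 highest. Ikzf2 rose by 0.75 (SE 0.12, limma adjusted p = 0.000558) against vehicle, by 0.51 (SE 0.12, limma adjusted p = 0.0203) against anti-PD1 and by 0.64 (SE 0.12, limma adjusted p = 0.00169) against α-KG.

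Gata3, the factor of type 2 helper cells, had the lowest mean of the 10 in all treated groups. It was at 0.14, 0.08, 0.21 and 0.14 FPKM in vehicle, at 0.65, 0.45, 0.22 and 0.29 FPKM in anti-PD1, at 0.15, 0.50, 0.32 and 0.18 FPKM in α-KG and at 2.02, 0.78, 1.83 and 0.38 FPKM in combination tumors. Combination tumor 4 overlapped the anti-PD1 and α-KG tumors. Gata3 rose by 0.91 (SE 0.20, limma adjusted p = 0.00258) with the combination against vehicle. Of the 8 genes listed for type 2 responses, 7 (Il4, Il5, Il13, Il1rl1, Ccr4, Ptgdr2 and Il9r) were too low to test, and Ccr8, a chemokine receptor also found on regulatory T cells, rose by 1.00 (SE 0.23, limma adjusted p = 0.00302). Ccr8 was open to the test only through the combination, where it was high. Elsewhere it was at most 0.22 FPKM in vehicle, 0.14 FPKM in α-KG and 0.80 FPKM in anti-PD1 tumors.

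Across the comparisons, each call on a level was of a factor that was higher in a treated group than in vehicle, in the combination than in a single treatment, or, for Batf, in α-KG than in anti-PD1. Between the combination and vehicle all 10 of 10 were higher, against a background of 34.9% of tested genes called higher. Tbx21, Eomes, Foxp3 and Gata3 reached the filter of 0.5 FPKM in 4 tumors only by counting combination tumors, so that the test was open to them only through the group where they were high, and the other 6 reached it without them. The count was 10 in every alternative run, including no filter, but the differences were smaller without combination tumors 1 and 3, at 0.93 for Tbx21, 0.91 for Eomes, 1.30 for Tox, 1.07 for Runx3, 0.79 for Prdm1, 0.48 for Id2, 0.59 for Batf and 0.46 for Gata3. For Foxp3 (0.78) and Ikzf2 (0.56) they changed by less than 1.5 times. Between the combination and anti-PD1, 8 were higher (background 14.2%), all but Id2 and Batf. This count was the least steady: it was 0 without anti-PD1 tumor 4, 1 without anti-PD1 tumor 1, 1 without combination tumor 3, 2 without combination tumor 1, and 0 without both combination tumors 1 and 3. It was 5 when 1 of vehicle tumors 2, 3 or 4 or any 1 α-KG tumor was left out. Between the combination and α-KG, 6 were higher (background 31.8%), namely Tbx21, Eomes, Tox, Foxp3, Gata3 and Ikzf2. Without combination tumors 1 and 3, 3 factors passed: Foxp3 and Ikzf2 were higher, and Batf was lower than in α-KG by -0.73 (limma adjusted p = 0.015).

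Fewer factors passed with each agent alone. With anti-PD1 alone, 0 of 10 passed the limma test against vehicle (background 0.467%), Id2 and Batf having unadjusted p below 0.05 with differences of 0.44 (SE 0.16) and 0.50 (SE 0.20). With α-KG alone, 4 were higher than vehicle (background 8.4%), namely Batf, Runx3, Id2 and Prdm1. Only 1 of these, Batf, was left without vehicle tumor 3 and likewise without vehicle tumor 4, and 2 were left without α-KG tumor 2. The difference with α-KG for the other 6 ranged from 0.11 for Ikzf2 to 0.32 for Tox, none past the threshold. These 6 were mostly below 1 FPKM, where the added 1 shrinks differences, so they are not shown to be unchanged. As a ratio of mean FPKM, α-KG over vehicle was 1.29 for Ikzf2 to 4.40 for Tbx21 among them. Among the 4 called it was 1.52 for Id2 to 5.72 for Prdm1. Between α-KG and anti-PD1, 1 factor, Batf, was higher (background 2.8%). The same 4 vehicle tumors stand behind every difference from vehicle. The interaction, the combination minus α-KG less the difference between anti-PD1 and vehicle, passed for 0 of the 10 in limma (background 7.99% of genes higher). It had unadjusted p below 0.05 for Foxp3 at 0.82 (SE 0.29), Ikzf2 at 0.40 (SE 0.18) and Batf at -0.83 (SE 0.29). The interaction count became 1 without combination tumor 1, 1 without combination tumor 2 and 2, Eomes and Tox, without combination tumor 4. The differences from vehicle are drawn with their intervals for the 3 treatments.

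**Figure D2:**
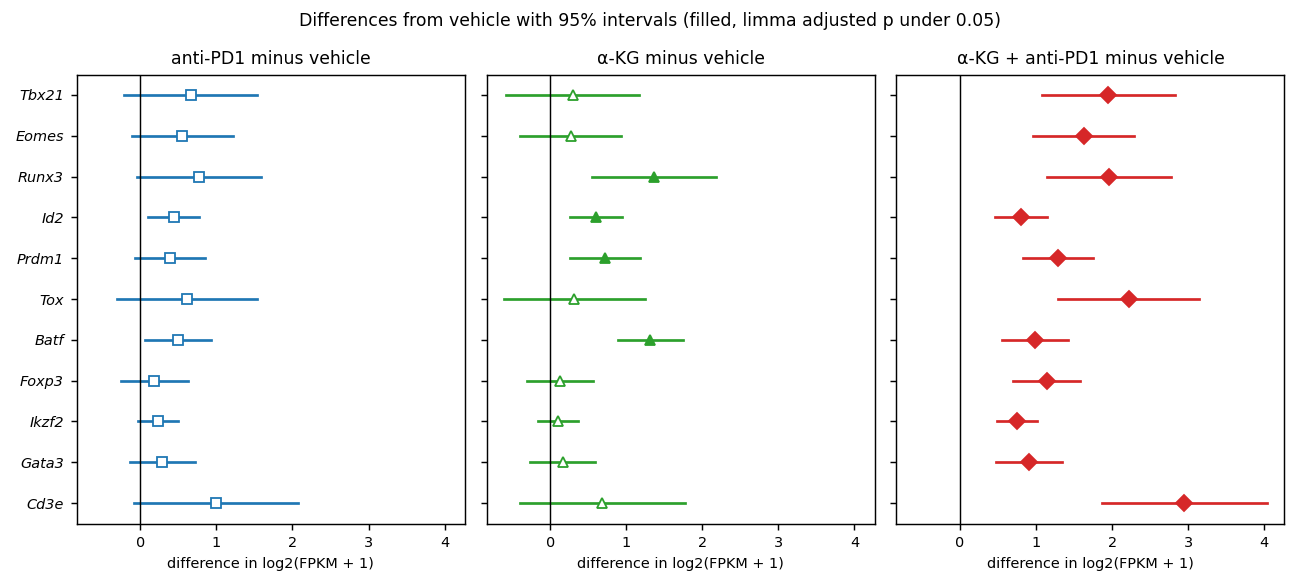
Difference from vehicle in mean log2(FPKM + 1) for the 10 factors and Cd3e with each treatment, with 95% intervals (n = 4 tumors per group); filled symbols passed the limma test at an adjusted p of 0.05. With α-KG alone only Runx3, Id2, Prdm1 and Batf are filled, with anti-PD1 alone none, and with the combination all, Cd3e being the farthest right at 2.95.

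Markers of other cell types also differed between the groups. Of all tested genes, 8.4% were called higher with α-KG than with vehicle and 34.9% with the combination. Between the combination and α-KG, 6.47% were called lower. The 4 neutrophil genes listed (S100a8, S100a9, Retnlg and Csf3r) summed to 1051 to 2834 FPKM in α-KG tumors and to 12.55 to 103 FPKM in all others, and all 4 were higher with α-KG than with vehicle (median difference 5.66) and lower with the combination than with α-KG (median difference -5.00). The pan-leukocyte genes Ptprc, Laptm5 and Coro1a were 3 of 3 higher both with α-KG (median difference 2.87) and with the combination (median difference 2.87). Of 6 macrophage genes 3 passed as higher with α-KG and 6 with the combination. Of 4 tested NK-cell genes (Eomes among them) none passed with α-KG and 4 with the combination, and the summed level of the 6 NK genes listed was 0.23 to 1.02 FPKM in vehicle, 0.84 to 2.29 FPKM in α-KG and 3.45 to 32.26 FPKM in combination tumors. Of the 4 tested, Ncr1, Klra4 and Eomes reached the filter only by counting combination tumors, the group where they were high. Of 6 genes listed for B and plasma cells 3 could be tested (Cd79a, Cd79b and Mzb1). None of these passed with α-KG (median difference 0.63), and Mzb1, a gene of plasma cells, was higher in the combination (0.99). The summed level of the 6 genes was 4.77 to 34.98 FPKM in α-KG tumors and at most 10.65 FPKM elsewhere. Skeletal muscle genes were higher in vehicle (26.5 to 360 FPKM summed) than in anti-PD1 (0.90 to 1.92 FPKM) and α-KG tumors (1.64 to 2.13 FPKM). In combination tumors they summed to 1.12 to 33.22 FPKM. The part of these cells in the differences of Batf, Runx3, Id2 and Prdm1 with α-KG was not tested.

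Read against Cd3e, the difference between the combination and vehicle was nearest to 0 for Tox and Tbx21 and farthest below it for Id2 and Batf. The ratio is given as log2((FPKM + 0.1)/(Cd3e FPKM + 0.1)), and it is coarse in vehicle tumors 3 and 4, where Cd3e was near 0.1 FPKM. The plain FPKM ratio of Tox to Cd3e was 0.222 to 0.560 in vehicle, 0.237 to 0.625 with anti-PD1, 0.135 to 0.466 with α-KG and 0.377 to 0.524 in combination tumors. Tbx21 had ratios of 0.122 to 0.889, 0.263 to 0.581, 0.196 to 0.312 and 0.248 to 0.362 in these 4 groups. The ranges of both genes overlapped between all groups although their levels differed widely. On the log2 scale the combination differed from vehicle by -0.32 (SE 0.81, 95% interval -1.91 to 1.27) for Tox and by -0.40 (SE 0.82, 95% interval -2.002 to 1.209) for Tbx21, so that the ratio was not shown to be the same. Eomes, at -1.24 (SE 0.81), and Prdm1, at -1.58 (SE 0.81), missed the threshold with limma adjusted p of 0.127 and 0.0537. Every SE relative to Cd3e here and below follows a spread shared across genes, not the factor's own. For Tox the log2 ratio had an SD of only 0.213 in vehicle and 0.202 in combination tumors. A factor that missed the threshold in this fit is therefore not shown to be unchanged.

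Relative to Cd3e, 6 of 10 factors were lower in the combination than in vehicle (background 97.6% of all tested genes lower): Id2 by -3.65 (SE 0.84), Batf by -3.34 (SE 0.79), Ikzf2 by -2.87 (SE 0.81), Gata3 by -2.19 (SE 0.83), Foxp3 by -1.99 (SE 0.82) and Runx3 by -1.64 (SE 0.78). Their limma adjusted p ran from 1.57e-05 for Id2 to 0.0363 for Runx3. Without combination tumors 1 and 3, Foxp3 (-1.29) and Runx3 (-1.44) no longer passed. The median gene differed by -4.27 relative to Cd3e, each of the 10 differences was less negative than this, and Tox, Tbx21 and Eomes stood at percentiles 99.6, 99.5 and 98.4 of all differences. The log2 ratio of Batf to Cd3e averaged 3.41 ± 1.09 (SD, n = 4) in vehicle, 1.89 ± 0.479 with anti-PD1, 3.34 ± 1.18 with α-KG and 0.07 ± 1.01 in combination tumors. All 4 combination tumors were below all 12 others, if barely: the highest of them was at 1.30 and the lowest anti-PD1 tumor at 1.32. Foxp3 had FPKM ratios to Cd3e of 0.459 to 1.11 in vehicle, 0.093 to 0.373 with anti-PD1, 0.175 to 0.432 with α-KG and 0.076 to 0.684 in combination tumors, so that anti-PD1 and α-KG tumors lay below all vehicle tumors and the combination overlapped vehicle through tumor 4.

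Against anti-PD1, Batf at -1.82 (SE 0.79) and Id2 at -1.99 (SE 0.84) were lower relative to Cd3e, 2 of 10 (background 86.7%), with 0 of 10 left without any 1 of anti-PD1 tumors 1 and 4 or combination tumors 1 and 3. Against α-KG, 5 were lower (background 94.1%): Batf at -3.27 (SE 0.79), Id2 at -2.71 (SE 0.84), Runx3 at -2.27 (SE 0.78), Prdm1 at -2.04 (SE 0.81) and, at the threshold, Ikzf2 at -1.62 (SE 0.81, limma adjusted p = 0.04996). None of these 5 passed without both combination tumors 1 and 3. No factor passed relative to Cd3e between anti-PD1 and vehicle (background 87.3%), between α-KG and vehicle (background 0.646%), between α-KG and anti-PD1 (background 0%) or for the interaction (background 0.809%), in limma with all tumors. Unadjusted p was below 0.05 in 1 of these 40 tests, Id2 between anti-PD1 and vehicle. Without 1 tumor, anti-PD1 against vehicle gave 3 factors without vehicle tumor 1, 3 without combination tumor 4, 2 without α-KG tumor 2, 2 without combination tumor 1 and 1 without anti-PD1 tumor 4. The ratio plot gives each tumor's value.

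**Figure D3:**
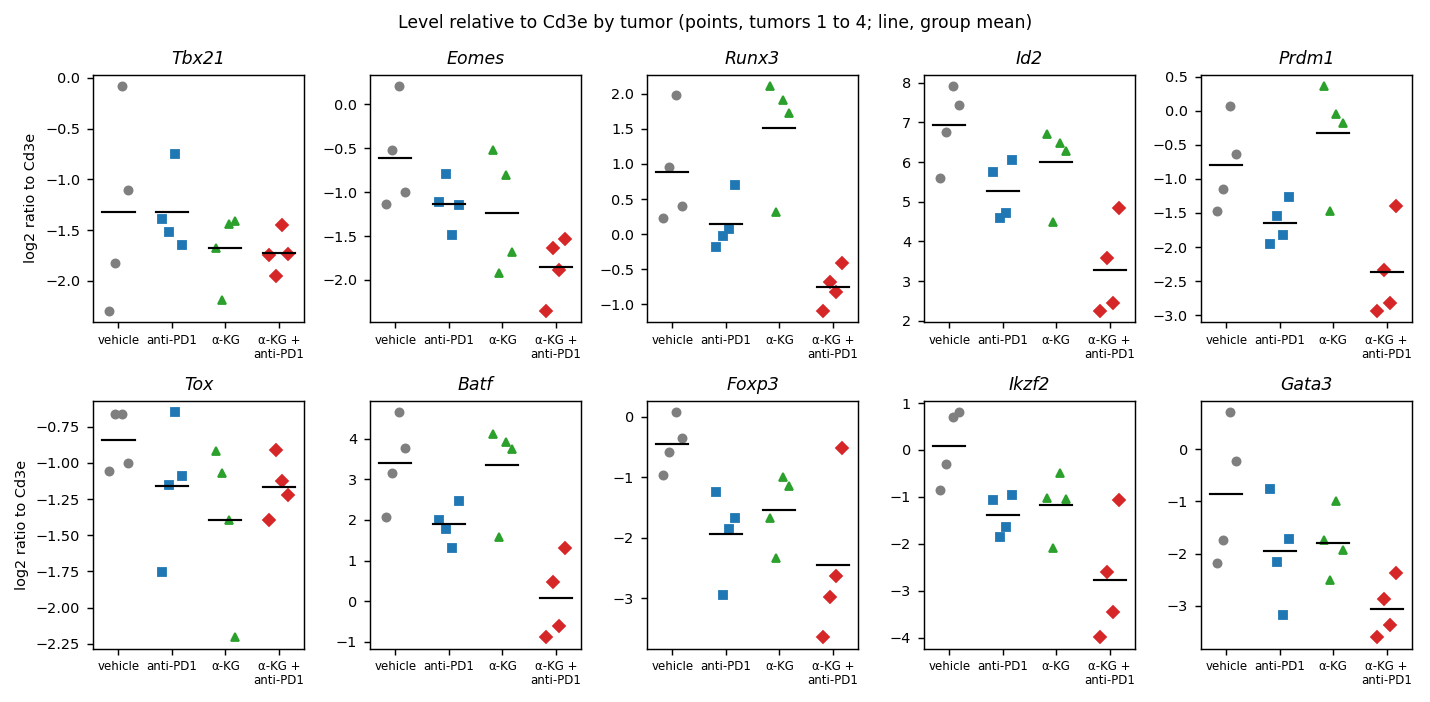
log2 ratio of each factor to Cd3e in each tumor, with 0.1 added to both FPKM values; points are tumors 1 to 4 from left to right and lines are means of the 4. Tbx21 and Tox overlap across all groups, while Batf, Id2, Runx3 and Prdm1 are highest in vehicle or α-KG tumors and lowest in the combination.

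The calls in the combination differed with the way Cd3e was taken into account. With Cd3e entered as a covariate on the level scale instead of as a denominator, 0 of 10 factors passed in limma between the combination and vehicle, and 0 had an unadjusted p below 0.05. That fit called 0% of all genes in this comparison, so it does not tell a changed factor from an unchanged one. The signs of Foxp3, Gata3, Id2, Batf and Ikzf2, all called with the ratio, turned, at 0.47, 0.02, 0.26, 0.26 and 0.27, with limma adjusted p of 0.559 to 0.978. That of Prdm1, which had missed the threshold, turned as well, at 0.16. With the same covariate Batf (1.15, limma adjusted p = 0.000278), Runx3 (0.89, limma adjusted p = 0.00267), Prdm1 (0.46, limma adjusted p = 0.00977) and Id2 (0.47, limma adjusted p = 0.0356) were higher with α-KG than with vehicle (background 7.82% of genes higher). Those are the same 4 factors as on the plain level scale. Against CD45 (Ptprc), the common leukocyte gene, the log2 ratio of Batf averaged 1.47 ± 1.13 in vehicle, 0.15 ± 0.425 with anti-PD1, -0.60 ± 0.262 with α-KG and -1.05 ± 0.456 in combination tumors, and that of Runx3 averaged -1.05 ± 0.772, -1.59 ± 0.181, -2.42 ± 0.347 and -1.87 ± 0.330. Relative to Ptprc, Tbx21 was lowest in α-KG tumors, at -5.62 ± 0.709, against -3.27 ± 0.992 in vehicle and -2.84 ± 0.673 in the combination. This was not particular to Tbx21: the mean of each factor but Batf was lowest in α-KG tumors, if barely for Id2. Cd3e itself was at -3.94 ± 1.05 there, against -1.94 ± 0.095 in vehicle. Ptprc averaged 19.4 FPKM in α-KG and 2.01 FPKM in vehicle tumors.

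Among tumors given the same treatment, 5 of the 10 factors tracked Cd3e. Over the 16 tumors, in deviations of log2(FPKM + 1) from the group means, Pearson's r with Cd3e was 0.977 for Tox, 0.943 for Eomes, 0.937 for Prdm1, 0.931 for Tbx21 and 0.922 for Runx3, with adjusted p of 0.0135 to 0.0201 over 12849 genes by 100000 permutations within groups (background 5.9% of genes). It was 0.805 for Ikzf2, 0.804 for Gata3, 0.646 for Batf, 0.605 for Id2 and 0.594 for Foxp3, which did not pass (permutation adjusted p of 0.0781 to 0.504). By Spearman's rho, 0.486 for Batf to 0.911 for Tbx21, none of the 10 passed, the lowest permutation adjusted p being 0.0567. The 2 tumors farthest from the median, combination tumors 1 and 4, carried much of the weight for some factors. Without them r stayed at 0.816 to 0.954 for the 5 that passed, and was 0.890 for Ikzf2, 0.792 for Foxp3, 0.532 for Gata3, 0.258 for Id2 and 0.227 for Batf. The median gene had an r of 0.106. After quantile normalization Prdm1 no longer passed (permutation adjusted p = 0.0736), and with a pseudocount of 0.1 Ikzf2 did (permutation adjusted p = 0.0377).

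**Figure D4:**
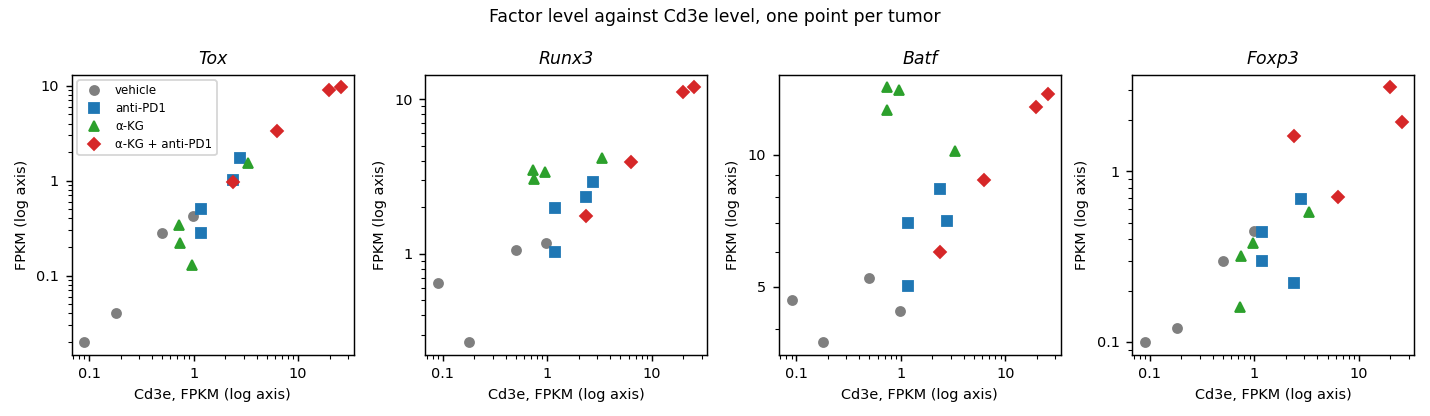
FPKM of Tox, Runx3, Batf and Foxp3 against FPKM of Cd3e (both log axes), 1 point per tumor, colored by group. Tox follows Cd3e along 1 line through all groups, whereas the α-KG tumors lie above the other groups at the same Cd3e for Runx3 and Batf.

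The factors also varied with each other inside groups. Prdm1 and Runx3 had the highest r of the 45 pairs (0.959 over 16 tumors), and Tbx21, Eomes, Tox, Prdm1 and Runx3 were at 0.918 or more with each other. Foxp3 stood apart from these, at 0.517 to 0.647 with them, and was closest to Ikzf2 (0.850) and farthest from Batf (0.240). The 3 tested genes nearest to each factor name its company. Tox was nearest to Lck (0.989) and Zap70 (0.983), kinases of the T-cell receptor, and Ctsw (0.979), a cathepsin of cytotoxic cells. Tbx21 was nearest to Pip4k2a (0.974), Tbc1d10c (0.973) and Ncr1 (0.973), the last an NK-cell receptor, and its r with Ncr1 was above that with Cd3e. Prdm1 was nearest to Atp10a (0.984) and the NK and cytotoxic T-cell receptors Klrk1 (0.982) and Klrd1 (0.980). Runx3 was nearest to B4galnt1 (0.976), Sema4a (0.974) and Klrc1 (0.974), and the nearest to Eomes included Pde3b (0.976) and Atp10a (0.959). For Foxp3 they were Ccr8 (0.871), Mocs3 (0.856) and Zfp385a (0.850), and for Gata3 Bcl11b (0.926), a T-lineage factor, Rnf125 (0.907) and Ipcef1 (0.907). Batf had Fxyd5 (0.912), Mospd2 (0.910) and Bst1 (0.902), Id2 had Akr1a1 (0.934), Plcb2 (0.901) and Slc40a1 (0.899), and Ikzf2 had Ace (0.908), S1pr1 (0.906) and Gstt2 (0.904). These values describe 16 tumors that share their group means and are given without a test.

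The balance between lineages was read from ratios of FPKM within each tumor, which are given without a test. Gata3 to Tbx21 was 1.14 to 4.67 in vehicle, 0.137 to 1.67 with anti-PD1, 0.600 to 1.52 with α-KG and 0.255 to 0.594 in combination tumors. The combination thus lay below vehicle without overlap. Its gap to α-KG, 0.594 against 0.600, is too small for FPKM of 2 decimals to resolve. Eomes to Tbx21 was 1.33 to 4.57 in vehicle and 0.652 to 1.26 in the combination. These ranges were barely apart, and the lowest vehicle ratio, in tumor 4, rests on 0.04 and 0.03 FPKM. Anti-PD1 tumors (0.571 to 1.75) and α-KG tumors (0.767 to 3.00) overlapped the combination. Tox to Tbx21 overlapped between all groups, at 0.250 to 4.00 in vehicle and 1.26 to 2.12 in the combination. Foxp3 to Cd8a, regulatory against cytotoxic T-cell transcripts, was 0.398 to 1.43 in vehicle, 0.0647 to 0.721 with anti-PD1, 0.160 to 0.679 with α-KG and 0.0640 to 0.521 in combination tumors. Foxp3 to Cd4 was 0.545 to 1.11 in vehicle and 0.322 to 1.34 in the combination. Vehicle values rest on low levels, down to 0.02 FPKM for Tox and 0.03 FPKM for Tbx21, and are the least precise.

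Genes that act beside the 10 factors were counted from fixed lists, against 34.9% of all tested genes called higher in the combination than in vehicle, 8.4% with α-KG and 0.467% with anti-PD1. In the combination against vehicle all 10 T-cell receptor genes tested were higher (median difference 2.35 on the log2 scale, Cd3g by 3.94, Cd2 by 2.98, Cd3d by 2.86 and Zap70 by 2.72), as were Cd8b1 (3.37), Cd8a (3.26) and Cd4 (1.51), and none of these passed with α-KG or anti-PD1 alone. Of 7 tested genes that T-bet and Eomes are known to drive, 6 were higher in the combination (median difference 3.83), led by Gzmb (4.45), Il2rb (4.13), Ccl5 (3.89) and Prf1 (3.83), and 0 with either agent alone. All 8 inhibitory receptors were higher in the combination (median difference 2.14), among them Pdcd1 (3.18), Lag3 (3.05), Tigit (2.30) and Havcr2 (2.15), whereas α-KG alone raised 2 that myeloid cells also carry, Entpd1 (3.37) and Cd244a (1.56). Another of the 8, Cd160, reached the filter only by counting combination tumors. Of 5 tested genes of regulatory T cells 4 were higher in the combination (median difference 1.79), Tnfrsf4 (2.02), Ctla4 (2.01), Tnfrsf18 (1.79) and Nrp1 (1.12), and 0 with α-KG alone.

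Of the transcription factors listed outside the 10, a part was called higher in the combination, where the background was 34.9%. Of 15 tested factors of the effector and exhausted states, 10 were higher in the combination than in vehicle (median difference 1.04), led by Ikzf1 (2.38), Nr4a2 (1.98), Ikzf3 (1.92) and Nfatc1 (1.62), and Bhlhe40 was lower (-0.52). Of these, Ikzf1 (1.43) and Maf (0.71) were also higher and Bhlhe40 (-0.62) lower with α-KG alone, and Maf (0.74) was higher with anti-PD1 alone. Of 7 tested factors of naive and memory T cells 4 were higher in the combination (median difference 0.49), Klf2 (1.40), Bcl6 (0.87), Satb1 (0.73) and Bach2 (0.31), and Klf2 (1.37) and Bcl6 (0.53) were also higher with α-KG. Lef1, Myb and Tox2 were below the filter. Of 5 tested helper lineage factors 3 were higher in the combination (median difference 0.25), among them Cbfb (0.25) and Stat6 (0.25).

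Promoter sequence is shown for 5 factors, the 2 that define the interferon gamma program and the 3 that were higher with α-KG and whose windows held a motif. Of the 10 factors 8 have a promoter in the RefSeq table used (assembly GRCm38.p6, the build also named in the submitters' processing notes as mm10). The windows below are the 250 bases before the start of transcription, on the strand of the gene, with any match to 1 of 7 motifs in capitals. They are chr11:97115332-97115581 on the minus strand for Tbx21, chr9:118477939-118478188 on the plus strand for Eomes, chr10:44458749-44458998 on the minus strand for Prdm1, chr4:135120395-135120644 on the plus strand for Runx3 (the more distal of 2 starts) and chr12:85686470-85686719 on the plus strand for Batf. The Prdm1 window belongs to a start inside the annotated gene, which spans 44437174 to 44528558. The Gata3 window, not printed, likewise lies inside its gene.
Tbx21: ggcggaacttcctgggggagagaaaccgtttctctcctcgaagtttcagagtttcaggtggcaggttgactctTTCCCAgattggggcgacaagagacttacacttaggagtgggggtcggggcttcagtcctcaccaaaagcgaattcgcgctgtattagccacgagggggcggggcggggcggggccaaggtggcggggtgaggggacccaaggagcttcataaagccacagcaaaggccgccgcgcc
Eomes: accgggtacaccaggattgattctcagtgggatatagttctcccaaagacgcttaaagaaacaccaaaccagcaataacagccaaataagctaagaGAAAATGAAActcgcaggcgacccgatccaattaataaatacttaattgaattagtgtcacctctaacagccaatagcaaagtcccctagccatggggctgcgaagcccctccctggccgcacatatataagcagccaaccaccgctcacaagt
Prdm1: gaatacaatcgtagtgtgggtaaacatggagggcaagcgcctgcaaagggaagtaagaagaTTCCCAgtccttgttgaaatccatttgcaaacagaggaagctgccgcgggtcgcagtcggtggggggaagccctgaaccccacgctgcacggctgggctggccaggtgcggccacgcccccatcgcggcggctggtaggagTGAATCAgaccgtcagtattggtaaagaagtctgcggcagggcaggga
Runx3: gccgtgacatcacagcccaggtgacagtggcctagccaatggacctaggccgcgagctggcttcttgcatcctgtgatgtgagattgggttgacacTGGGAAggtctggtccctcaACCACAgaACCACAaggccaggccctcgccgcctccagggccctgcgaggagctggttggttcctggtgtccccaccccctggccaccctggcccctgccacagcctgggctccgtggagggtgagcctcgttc
Batf: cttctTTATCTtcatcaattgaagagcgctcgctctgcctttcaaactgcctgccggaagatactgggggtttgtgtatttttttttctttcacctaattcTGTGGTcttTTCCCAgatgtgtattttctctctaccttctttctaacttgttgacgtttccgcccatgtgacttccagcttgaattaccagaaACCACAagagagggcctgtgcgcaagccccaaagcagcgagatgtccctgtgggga

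The motifs were searched on both strands over 300 bases, 250 before and 50 after each start: the T-box motif AGGTGT (found in 13.7% of 32851 mouse promoters), the RUNX motif TGTGGT (16.8%), the GATA motif AGATAA (11.2%), AP-1 and BATF TGANTCA (7.81%), GAS TTCNNNGAA (8.30%), interferon response, with 2 free bases between a pair of GAAA (3.44%) and Ikaros TGGGAA (25.6%). Runx3 held 2 RUNX matches, at 134 and 126 bases before its start, and an Ikaros match. Batf held RUNX matches 149 and 56 bases before its start, with a GATA and an Ikaros match. Prdm1 held the AP-1 and BATF letters 48 bases before its internal start and an Ikaros match, and Tbx21 held an Ikaros match alone. The interferon response letters occurred 154 bases before the start of Eomes. The T-box letters were in none of the 10 windows of the 8 factors, and the Gata3, Id2 and proximal Runx3 windows held none of the 7 motifs. Foxp3, with 2 starts, held an Ikaros match just after the more distal start and, before the other, a GATA match 47 and a GAS match 139 bases away. Distances run from the leftmost base of a match on the strand of the gene, and no matches overlapped. A match shows that the letters are there and nothing more.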

How the data were processed

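The 16 libraries came from poly(A) RNA (oligo-dT selection, dUTP in the second strand) and were read on a DNBSEQ machine, per the labels. The submitters' processing notes name HISAT, Bowtie2 and mm10, with no versions. The program that counted fragments and the annotation are not given in the sources used here. The authors deposited 1 table of FPKM values with 2 decimals for 18929 genes, and all 16 of its value columns were mapped to tumors by their names. The depth is not known, so no counting interval is given, and values below about 1 FPKM are the least precise.

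The filter kept the 12850 genes that reached 0.5 FPKM in 4 or more tumors. Values were changed to log2(FPKM + 1), or to the log2 ratio to Cd3e with 0.1 added to both, and limma 3.58.1 in R 4.3.3 fitted group means over the 16 tumors, with eBayes following the mean-variance trend. Adjusted p-values are Benjamini-Hochberg values over every tested gene, and calls were made at 0.05. In the Cd3e-relative fit Cd3e entered every ratio, so that limma took the shared spread as known (infinite prior degrees of freedom against 12 residual ones), and a fit with each gene's own variance was added after seeing the data. The level fit and the correlation test described next were tested on simulated data, and the Cd3e-relative fits and those with own variances were not. Correlations used deviations from group means with p from 100000 permutations within groups (Python 3.11.15, numpy 2.4.6, scipy 1.17.1, pandas 2.3.3). Replicate numbers were checked for pairing: over 24 same-numbered pairs r of the deviations ran from -0.64 to 0.41, and 9 were over 0.1, so the numbers were not taken to pair tumors.

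The members and gene lists were chosen with earlier results of these data known. The genes named are the 10 factors and Cd3e in every comparison, the 3 tested genes of highest r to each factor, and of each list at most the 4 called genes of largest difference between the combination and vehicle. Genes of the lists that passed with a single agent, and Cd79a, Cd79b, Mzb1 and the genes below the filter, were named beside these after their values were seen. Some genes that this rule names are not reported here. Alternatives were another pseudocount, no filter, quantile normalization, centring on medians, rescaling to 1 sum, only the groups compared, a replicate block, another denominator, Cd3e as a covariate and leaving out each tumor. Gene positions and promoters are from RefSeq tables of GRCm38.p6. No columns of the authors' own comparisons were used.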

Additional observations from a re-analysis of the deposited data

Results flagged for a closer look

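Of the 40 sets of 4 tumors (10 factors in 4 groups), 1 held a tumor far from the other 3 by Dixon's criterion, where chance alone gives about 1 in 20. Tox was at 1.53 FPKM in α-KG tumor 2, against 0.34, 0.22 and 0.13 FPKM in α-KG tumors 1, 3 and 4. The same tumor held the most Cd3e of its group, at 3.32 FPKM against 0.73, 0.74 and 0.96 FPKM, and its Tox to Cd3e ratio of 0.461 lay within the group's range of 0.135 to 0.466.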

How the results depend on the processing

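The direction of each called difference in level was the same under the alternatives run, and the 10 calls between the combination and vehicle held in each, with smaller differences without combination tumors 1 and 3 (0.46 for Gata3 to 1.30 for Tox). Between the combination and anti-PD1 the count of 8 became 3 with a pseudocount of 0.1, 4 with no filter, 3 after quantile normalization, 4 after centring on the tumor medians and 0 in a fit of only the groups compared. After seeing the data, unmoderated variances (3) and leaving out combination tumors 1 and 3 (0) were added. In leave-one-out fits this count ran from 0 to 10. Between the combination and α-KG it ran from 6 to 8, and was 3 without combination tumors 1 and 3. Between α-KG and vehicle it ran from 1 to 4 and was 2 with unmoderated variances, and between α-KG and anti-PD1 from 0 to 1, with 0 under no filter, rescaling to the same sum, unmoderated variances and the replicate block. The interaction ran from 0 to 2 and was 1 after quantile normalization, centring, rescaling or without combination tumors 1 and 3. Anti-PD1 against vehicle stayed at 0, and the combination against vehicle at 10.

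Relative to Cd3e, leave-one-out counts ran from 4 to 7 for the combination against vehicle, from 4 to 5 against α-KG, from 0 to 3 against anti-PD1 and from 0 to 3 for anti-PD1 against vehicle (3 with unmoderated variances), and stayed at 0 in the other 3 comparisons. Against anti-PD1 the count was 4 with a pseudocount of 1, 1 with the mean of 6 T-cell genes as denominator and 0 without combination tumors 1 and 3, where that against α-KG was also 0. Cd3e as a covariate gave 0 for the combination against vehicle, 0 against anti-PD1, 1 against α-KG (Runx3), 4 for α-KG against vehicle, 3 for α-KG against anti-PD1 and 2 for the interaction. Among factors called in either fit, it turned the sign, in the combination against vehicle, of Foxp3 (0.47), Gata3 (0.023), Id2 (0.26), Batf (0.26) and Ikzf2 (0.27). Against anti-PD1 it turned Id2 (0.0026) and Batf (0.0040), against α-KG Ikzf2 (0.28), and in α-KG against vehicle Id2 (0.47) and Batf (1.15). Factors called in neither fit turned as well, such as Prdm1 (0.16) against vehicle. Against anti-PD1 so did Prdm1 (0.15), Foxp3 (0.51), Gata3 (0.034) and Ikzf2 (0.19). A covariate adjusts by the slope within groups, a ratio by a slope of 1. The constant added to FPKM also differed, 1 in the covariate fit and 0.1 in the ratio. Beyond this, the causes were not tested.

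The count of factors correlated with Cd3e was 4 after quantile normalization and 6 with a pseudocount of 0.1, against 5.

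The replicate numbers were not taken to pair the tumors, though the check of same-numbered tumors cannot exclude shared handling. A fit with the number as replicate block gave 6 factors for the combination against anti-PD1, and apart from the loss of Batf between α-KG and anti-PD1 and of Ikzf2 relative to Cd3e against α-KG changed no other count by over 1.5 times. With no depth given, differences of factors below 1 FPKM are the least certain.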
